A study of Sus scrofa with 12 samples.

Results

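The genes described here are 7 of the 7480 genes with values in 12 pig blood libraries. They were chosen by name, for their ties to dendritic cells and the interleukin-12 (IL-12) cytokine family and with earlier results of these data known: TCF4, TLR9, IL12A, IL12B, IL27, CCL19 and CCL22. All 7 were measured in all 12 libraries. The libraries formed 3 groups of 4: sponge plus Salmonella, Salmonella alone, and untreated control. The sponge is a synthetic oligonucleotide meant to bind the microRNA miR-124. The titles of that group's libraries name miR-124 and Salmonella without the word sponge, which stands in the descriptions and treatment labels. By the labels, the RNA was from peripheral blood mononuclear cells (PBMC) of Duroc × Landrace × Yorkshire crossbred piglets, aged 4 weeks, taken 12 h after treatment, and was purified with a PAXgene kit. The study held 20 piglets, 10 male and 10 female, from 1 commercial farm. The labels call the bacterium Salmonella Typhi in 1 place, and they leave unclear whether animals or cells were treated. They do not tie a library to an animal, so a p-value covers only the spread among these samples, and that spread may be technical.

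Dendritic cells take up microbes, sense them and present their antigens to T cells. Plasmacytoid dendritic cells are the type that makes type I interferon in large amounts. They depend on the transcription factor TCF4 (E2-2) and sense unmethylated CpG DNA, as found in bacteria, with the endosomal receptor TLR9. Conventional dendritic cells and monocytes that meet bacteria secrete IL-12, made of the p35 chain (IL12A) and the p40 chain (IL12B), which drives T cells and NK cells to make interferon gamma. The related cytokine IL-27 pairs the p28 chain (IL27) with EBI3. The chemokine CCL19 attracts cells through the receptor CCR7, and CCL22 attracts them through CCR4. These roles are known mostly from human and mouse.

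Values were deposited on a logarithmic scale taken as base 2, and all levels and differences below are in those log2 units. Differences were tested with limma across all 7480 genes, and a gene was called where its Benjamini-Hochberg adjusted p was below 0.05. The level of an unexpressed gene in this table is not 0. A set of 174 symbols of olfactory, taste and vomeronasal receptors and keratin-associated proteins, which blood cells are not known to use, had a mean of 4.62, and 46 of these symbols were found in pig gene tables. The 95th percentile of that silent set lay between 5.10 and 5.39 in the 12 libraries. A level under it cannot be told from background, and a difference that reaches down to it does not show how far the gene moved. Library medians ran from 5.11 to 5.31, correlations across genes within a group were at least 0.953, and the sequencing depth is unknown. Ties with another gene of the same column made up 65.1% to 71.4% of each sponge plus Salmonella library, against at most 0.0802% of each of the other 8 libraries. Of the members' 28 values with the sponge 25 were such ties, against 0 of 56 in the others. The ties and the treatment coincide and cannot be told apart. Markers of T cells, B cells, NK cells and monocytes had group means between 6.23 and 9.91, above the background. Neutrophil markers (5.99 to 7.50 per library), erythroid markers (7.49 to 10.79) and platelet markers (7.67 to 8.85) stood above it as well, so these values do not tell PBMC from whole blood.

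TCF4 stood above the silent set in 12 of 12 libraries, TLR9 in 5, IL27 in 5 and IL12A in 1. IL12B, CCL19 and CCL22 did so in 0 of 12. In Salmonella against control libraries IL27 rose while TCF4 and TLR9 fell, so that 3 of 7 members were called, where 33.6% of all genes were called (15.7% higher and 17.9% lower). In sponge plus Salmonella against Salmonella libraries IL27 fell and IL12B rose, which is 2 of 7 members, where 25% of all genes were called (11.9% higher and 13.2% lower). In sponge plus Salmonella against control libraries TCF4 and TLR9 fell and IL12A and IL12B rose, which is 4 of 7, where 40.9% of all genes were called (17.9% higher and 23% lower). The members' median differences were -0.01, 0.01 and 0.00 in these 3 comparisons, against -0.02, -0.04 and -0.07 over all genes. The libraries of the groups compared did not overlap for 4, 2 and 3 of the 7 members, where this held for 35.6%, 23.8% and 39.7% of all genes. The comparisons share libraries, since each group enters 2 of them. The counts of called genes in the lists below are to be read beside these shares of all genes.

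**Figure D1:**
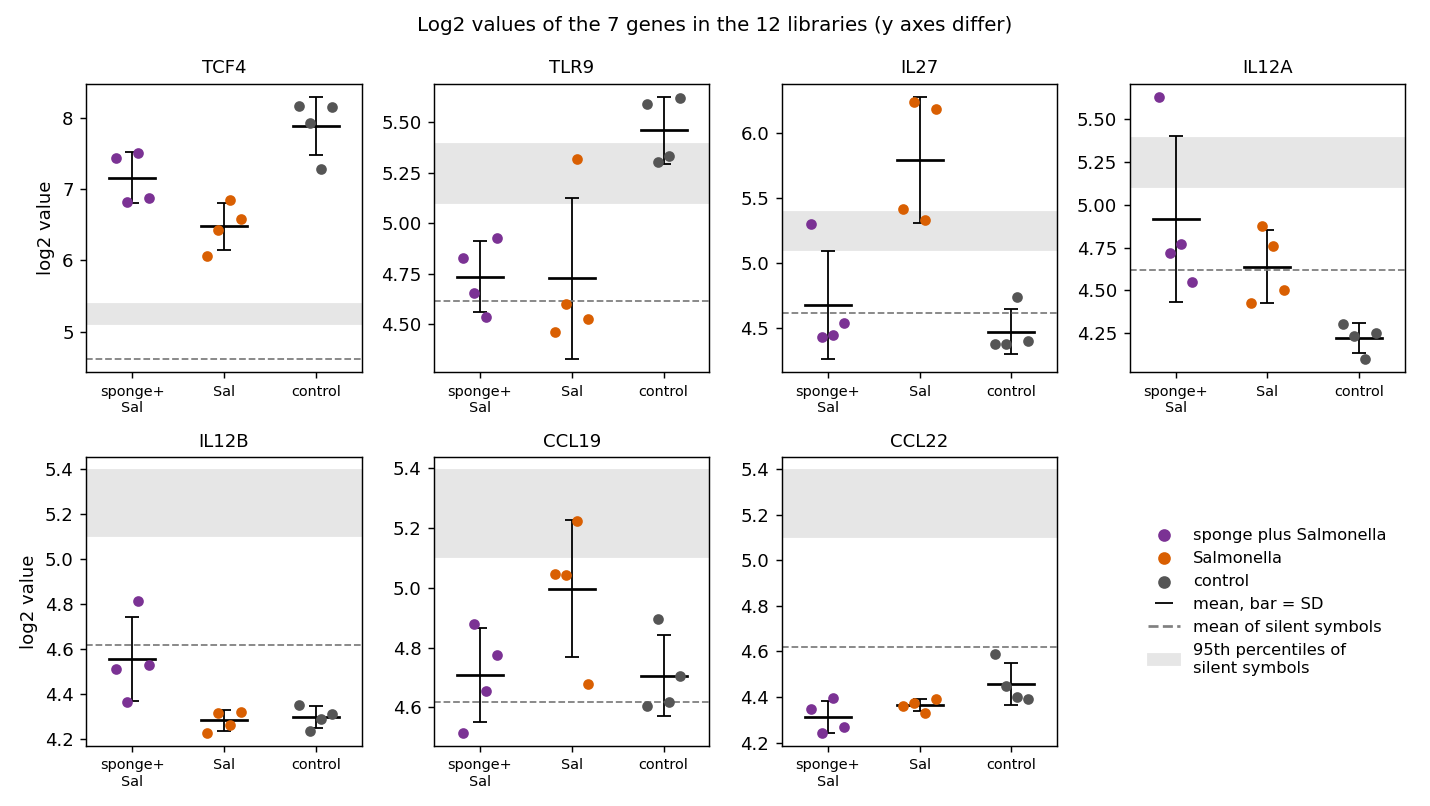
Log2 values of the 7 genes (y axes differ between panels) in each of 4 sponge plus Salmonella, 4 Salmonella and 4 control libraries; points are libraries, lines are means, bars are SD, the dashed line is the mean of the silent symbols and the grey band spans their 95th percentiles. TCF4 lies above the band in every library, IL27 reaches 6.24 in Salmonella libraries, and CCL22 lies below the dashed line in every library.

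TCF4, the basic helix-loop-helix factor that sets the identity of plasmacytoid dendritic cells and is also used in developing B cells, lies on chromosome 1 (104718809 to 105079919, Sscrofa11.1). Its level was 7.43, 6.82, 7.50 and 6.88 in sponge plus Salmonella libraries, 6.06, 6.43, 6.85 and 6.58 in Salmonella libraries, and 8.16, 7.93, 7.29 and 8.16 in control libraries. All 4 Salmonella libraries were below all 4 control libraries, and the sponge plus Salmonella libraries lay between them, meeting the highest Salmonella library at one end and the lowest control library at the other. The means were 7.16 ± 0.36, 6.48 ± 0.33 and 7.88 ± 0.41 (SD, n = 4 each) for sponge plus Salmonella, Salmonella and control. TCF4 fell by 1.40 ± 0.25 (SE) in Salmonella against control libraries, with a limma adjusted p of 0.000669. The difference of sponge plus Salmonella over Salmonella libraries, 0.68 ± 0.25 with a 95% confidence interval of 0.14 to 1.21, missed the threshold (adjusted p = 0.0593). It passed in 2 of 15 alternatives, among them quantile normalization (0.0405), and the highest adjusted p of the alternatives was 0.147. Against control, TCF4 fell by 0.72 ± 0.25 in sponge plus Salmonella libraries (adjusted p = 0.0313). That call was lost in 7 of 15 alternatives. These included leaving out control replicate 1, 2 or 4 or sponge plus Salmonella replicate 2 or 4 (adjusted p 0.0646 to 0.0905). Raising low values to the background (0.0504) and a replicate block, given further below, lost it too.

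TLR9, the receptor for CpG DNA in plasmacytoid dendritic cells and B cells, lies on chromosome 13 (34353444 to 34370990). The level of TLR9 was 4.83, 4.65, 4.54 and 4.93 in sponge plus Salmonella libraries, 4.46, 4.60, 5.32 and 4.53 in Salmonella libraries, and 5.59, 5.30, 5.33 and 5.62 in control libraries. All 4 control libraries and Salmonella replicate 3 were above the silent set, and the other 7 libraries were at background. TLR9 fell by 0.73 ± 0.19 in Salmonella against control libraries (adjusted p = 0.00838), where the groups overlapped through Salmonella replicate 3. In sponge plus Salmonella against control libraries it fell by 0.72 ± 0.19 (adjusted p = 0.00776), with no overlap. Between sponge plus Salmonella and Salmonella libraries the difference was 0.01 ± 0.19, with an interval of -0.40 to 0.41 (adjusted p = 0.979). The annotated TLR9 gene overlaps TWF2, which encodes an actin-binding protein, over 9697 of its 17547 bases. Whether reads were counted by strand is not given in the sources used here, so within that overlap reads of one cannot be told from reads of the other. TWF2 had group means of 9.04 ± 0.11, 9.19 ± 0.14 and 9.18 ± 0.10 in sponge plus Salmonella, Salmonella and control libraries, and its difference was 0.01 in Salmonella against control and -0.14 in sponge plus Salmonella against control libraries, neither of them called.

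In Salmonella against control libraries, where TCF4 and TLR9 fell, 5 of 6 measured B cell markers fell and 0 rose, among them the antigen receptor component CD79A (-2.78 ± 0.20) and the follicle-homing receptor CXCR5 (-2.47 ± 0.24). With the sponge over Salmonella, where neither TCF4 nor TLR9 was called, 6 of 6 rose, CD79A by 2.03 ± 0.20 and CXCR5 by 1.76 ± 0.24. The mean of the 6 markers ran from 7.63 to 7.93 per library in the sponge plus Salmonella group, 5.92 to 6.56 in the Salmonella group and 7.76 to 8.13 in the control group. Against control, 3 of the 6 fell and 1 rose in sponge plus Salmonella libraries, with a median of -0.63. In bulk RNA fewer cells of a type and less RNA per cell cannot be told apart. The part of B cells in the TCF4 and TLR9 results was not tested.

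The measured plasmacytoid dendritic cell genes moved in both directions. Of 12 measured genes of the 26 on the list, TCF4 and TLR9 included, 3 rose and 3 fell in Salmonella against control libraries, with a median of -0.08. Of the 10 genes other than TCF4 and TLR9, 3 rose, 1 fell and 6 were not called, where 15.7% of all genes rose and 17.9% fell. The endosomal RNA sensor TLR7 rose by 2.31 ± 0.38 (adjusted p = 0.000335), while TLR9 fell. The endolysosomal transporter SLC15A4, on which TLR7 and TLR9 signalling depends, rose by 0.66 ± 0.19 (adjusted p = 0.0168), and the sphingomyelinase gene SMPD3, a human plasmacytoid marker, fell by 0.90 ± 0.27 (0.0192). With the sponge over Salmonella 3 of the 12 rose and 1 fell, with a median of 0.29, where 11.9% of all genes rose and 13.2% fell. The tetraspanin gene TSPAN13 rose by 2.52 ± 0.34 (adjusted p = 0.000293) and the oxysterol receptor GPR183 by 1.93 ± 0.29 (0.00049). TSPAN13 was at 6.65 ± 0.45 in sponge plus Salmonella libraries, against 4.14 ± 0.80 in Salmonella and 3.97 ± 0.40 in control libraries, both below the mean of the silent set. The mean of GPR183 over the 12 libraries was below 5, under the 95th percentile of the silent set. SPIB, a factor shared by plasmacytoid dendritic cells and B cells, was the third gene that rose (1.31 ± 0.28, adjusted p = 0.00453), and TLR7 fell by 1.54 ± 0.38 (0.00941). IRF8, which both dendritic lineages need, was at 10.66 ± 0.34, 10.83 ± 0.28 and 11.26 ± 0.15 in sponge plus Salmonella, Salmonella and control libraries, and its fall of 0.60 ± 0.18 in sponge plus Salmonella against control libraries was called (adjusted p = 0.0176). The call of SLC15A4 was lost in 2 of 15 alternatives and that of IRF8 in 3. That of SMPD3 was lost in 2, with low values raised to the background and without control replicate 2 (adjusted p 0.0512 to 0.0598).

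Genes that bind or bear on TCF4 as an E protein were measured for 6 of 11. In Salmonella against control libraries 4 rose and 0 fell, with a median of 0.75, among them LDB1 (0.73 ± 0.24), CBFA2T3 (0.77 ± 0.26) and ID2 (1.26 ± 0.46), with adjusted p from 0.0289 to 0.0486. ID2, an inhibitor of E proteins that favours conventional over plasmacytoid dendritic cells in mouse, was at 10.12 ± 0.10 in sponge plus Salmonella libraries, 8.64 ± 0.88 in Salmonella libraries and 7.38 ± 1.09 in control libraries. ID2 rose further with the sponge, by 1.48 ± 0.46 over Salmonella libraries (adjusted p = 0.031), while LDB1 fell there. Of the 6 genes 1 was thus higher and 1 lower in that comparison. These calls were the less stable ones. That of ID2 in Salmonella against control libraries was lost in 11 of 15 alternatives, and its call over Salmonella libraries in 8. Those of LDB1 and CBFA2T3 in Salmonella against control libraries were lost in 5 each. The call of LDB1 over Salmonella libraries was lost in 6.

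Conventional dendritic cell genes were measured for 9 of 20. Salmonella against control libraries had 3 higher and 2 lower, with a median of 0.33. FCER1A, the IgE receptor chain carried by basophils as well as conventional dendritic cells, fell by 3.02 ± 0.22 (adjusted p = 7.35e-07), and the lipid-presenting CD1E fell by 2.18 ± 0.21 (3.83e-06). The lysosomal amidase NAAA rose by 2.09 ± 0.30 and the protease inhibitor CST3, also abundant in monocytes, by 0.93 ± 0.21. Sponge plus Salmonella against Salmonella libraries had 5 higher and 1 lower, with a median of 0.66. FCER1A rose by 1.51 ± 0.22 and DPP4, a surface peptidase also found on T cells, by 1.81 ± 0.37, while CST3 fell by 0.90 ± 0.21. XCR1 and FLT3, which mark type 1 conventional dendritic cells and dendritic cell precursors, had differences of -0.08 and 0.05 in Salmonella against control libraries and -0.24 and -0.53 with the sponge over Salmonella, none of them called. Basophil and eosinophil markers, FCER1A included, fell for 5 of 6 in Salmonella against control libraries and rose for 3 of 6 with the sponge over Salmonella. The part of those cells in the FCER1A result was not tested.

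**Figure D2:**
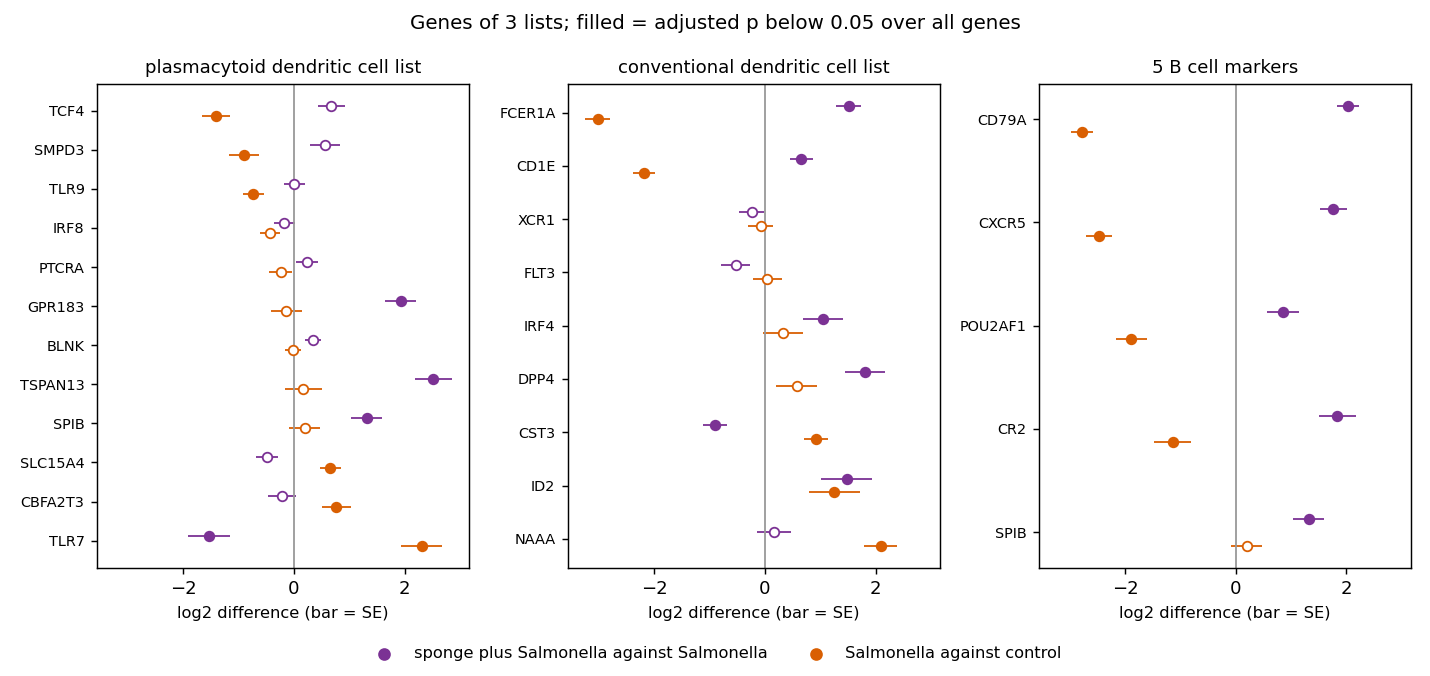
Log2 differences (x axis, bars are SE) of the measured genes of the plasmacytoid and conventional dendritic cell lists and of 5 B cell markers, for sponge plus Salmonella against Salmonella (purple) and Salmonella against control (orange); filled points have an adjusted p below 0.05. The B cell markers drawn lie left of 0 for Salmonella, except SPIB, and right of 0 for the sponge, while the dendritic cell lists lie on both sides in both comparisons.

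IL27, which encodes the p28 chain of IL-27, lies on chromosome 3 (18421962 to 18427916) and was the IL-12 family gene with the widest difference in Salmonella libraries. Its level was 5.30, 4.43, 4.45 and 4.54 in sponge plus Salmonella libraries, 5.41, 6.24, 5.34 and 6.19 in Salmonella libraries, and 4.38, 4.38, 4.74 and 4.40 in control libraries. All 4 Salmonella libraries stood above the silent set and above every other library, and besides them only sponge plus Salmonella replicate 1 did so. IL27 rose by 1.32 ± 0.24 in Salmonella against control libraries (adjusted p = 0.000857). It fell by 1.11 ± 0.24 in sponge plus Salmonella against Salmonella libraries (adjusted p = 0.00497). Sponge plus Salmonella and control libraries, at 4.68 ± 0.42 and 4.47 ± 0.18, differed by 0.21 ± 0.24 with an interval of -0.31 to 0.72.

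EBI3 is the partner chain of p28. The level of EBI3 was 4.59, 4.72, 4.57 and 4.44 in sponge plus Salmonella libraries, 4.93, 5.74, 5.14 and 5.46 in Salmonella libraries, and 4.62, 4.80, 4.86 and 4.89 in control libraries. Every Salmonella library was above every other library, by little in replicate 1, and Salmonella replicates 2 and 4 were the highest for both chains. Sponge plus Salmonella replicate 1, the only other library where IL27 passed the silent set, had EBI3 at 4.59, below replicate 2 of its group. The sponge plus Salmonella and control values of EBI3, and Salmonella replicate 1, lay under the lowest 95th percentile of the silent set (5.10). Salmonella replicate 3, at 5.14, did not pass either, since CCL19 at 5.22 in that library did not. Only Salmonella replicates 2 and 4 were above the highest of these percentiles (5.39). Differences from values at background do not show how far EBI3 moved. EBI3 rose by 0.52 ± 0.17 in Salmonella against control libraries (adjusted p = 0.0251), a call lost in 5 of 14 alternatives (adjusted p 0.0535 to 0.0767). That rise was only just above the central 95% of the silent symbols in this comparison (-0.56 to 0.50). In sponge plus Salmonella against Salmonella libraries EBI3 fell by 0.73 ± 0.17 (adjusted p = 0.00609).

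**Figure D3:**
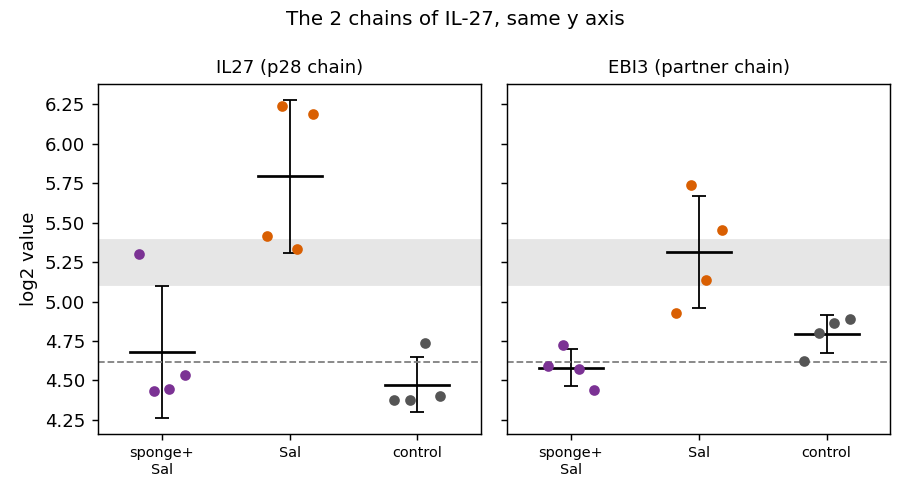
Log2 values of IL27 and EBI3, the chains of IL-27, on the same y axis in the 4 libraries of each group; points are libraries, lines are means, bars are SD, and the dashed line and grey band are the mean and 95th percentiles of the silent symbols. Salmonella libraries lie highest in both panels, at 5.34 to 6.24 for IL27 and 4.93 to 5.74 for EBI3.

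Genes known to control the IL12B or IL27 promoters were measured for 8 of 19. Of these 5 rose and 1 fell in Salmonella against control libraries, with a median of 1.04. IRF1, an interferon-induced factor that acts on IL12A, IL12B and IL27 in mouse, was at 12.83, 12.10, 11.80 and 11.88 in sponge plus Salmonella libraries, 13.38, 13.88, 13.66 and 13.78 in Salmonella libraries, and 11.38 ± 0.23 (SD, n = 4) in control libraries. The groups did not overlap, and sponge plus Salmonella replicate 1, which had the high IL27 value, was the highest of its group for IRF1 too. That library was also the highest of its group for IL12A (5.63) but not for IL12B (4.51). The part of IRF1 in the IL27 level was not tested. IRF1 rose by 2.29 ± 0.21 in Salmonella against control libraries (adjusted p = 2.82e-06) and fell by 1.53 ± 0.21 in sponge plus Salmonella against Salmonella libraries (0.000318). The myeloid factors SPI1 and CEBPB rose by 1.93 ± 0.21 and 1.09 ± 0.19 in Salmonella against control libraries, and CEBPB fell with the sponge over Salmonella (adjusted p = 0.00237). NFIL3, which represses IL12B in mouse macrophages, rose by 2.18 ± 0.30 in Salmonella against control libraries and differed by 0.06 ± 0.30 between sponge plus Salmonella and Salmonella libraries. The mean of 8 monocyte markers ran from 9.03 to 9.51 in sponge plus Salmonella libraries, 9.77 to 10.04 in Salmonella libraries and 7.95 to 8.63 in control libraries. Of these markers 6 rose and 0 fell in Salmonella against control libraries, 4 fell and 0 rose with the sponge over Salmonella, and the part of monocytes in the IL27 and IRF1 results was not tested.

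IL12A, which encodes the p35 chain of IL-12, lies on chromosome 13 (99733394 to 99741078). Its level was 5.63, 4.72, 4.77 and 4.55 in sponge plus Salmonella libraries, 4.42, 4.88, 4.76 and 4.50 in Salmonella libraries, and 4.30, 4.23, 4.10 and 4.25 in control libraries. The control libraries were the lowest 4 of the 12, and sponge plus Salmonella replicate 1 alone was above the silent set. IL12A rose by 0.70 ± 0.18 in sponge plus Salmonella against control libraries (adjusted p = 0.00811). Without sponge plus Salmonella replicate 1 the difference was 0.46 and was called (adjusted p = 0.0050). Every IL12A value then left was at background. That difference lay inside the central range of the silent symbols, taken as for EBI3. With all libraries this range ran from -0.66 to 0.52 in sponge plus Salmonella against control libraries. Of the silent symbols 24.7% were called there, so such a call alone does not show a rise of IL12A. With all libraries kept and low values raised to the background the call was lost (0.231). In Salmonella against control libraries the difference of 0.42 ± 0.18 missed the threshold (adjusted p = 0.0939), though the groups did not overlap. It passed in 1 of 14 alternatives, where these 2 groups were fitted alone (0.0111). With low values raised to the background it was 0.10 (0.801). Between sponge plus Salmonella and Salmonella libraries it was 0.28 ± 0.18 (adjusted p = 0.276).

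IL12B, which encodes the p40 chain shared by IL-12 and IL-23, lies on chromosome 16 (64143268 to 64158929). The level of IL12B was 4.51, 4.36, 4.81 and 4.53 in sponge plus Salmonella libraries, 4.23, 4.32, 4.26 and 4.32 in Salmonella libraries, and 4.35, 4.24, 4.29 and 4.31 in control libraries. All 4 sponge plus Salmonella libraries were above the other 8, and 0 of 12 stood above the silent set. IL12B rose by 0.27 ± 0.08 in sponge plus Salmonella against Salmonella libraries (adjusted p = 0.0212) and by 0.26 ± 0.08 against control libraries (0.0174). The first call was lost in 5 alternatives (adjusted p 0.0501 to 0.422) and the second in 4 (0.0504 to 0.366), among them raising low values to the background, and without sponge plus Salmonella replicate 3 the second difference was 0.17. Differences of this size were common in genes not known to be used in blood: the central 95% of the silent symbols ran from -0.54 to 0.48 in sponge plus Salmonella against Salmonella libraries, and 14.9% of them were called. These calls were 8 higher and 18 lower. The share of silent symbols called was 24.7% in sponge plus Salmonella against control libraries (7 higher, 36 lower). In Salmonella against control libraries it was 14.4% (8 higher, 17 lower). The Salmonella against control difference of IL12B was -0.01 (adjusted p = 0.906).

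Receptor chains for these cytokines were measured for 1 of 5, which was IL12RB2, the signalling chain of the IL-12 receptor. IL12RB2 was at 4.69 ± 0.10, 4.99 ± 0.13 and 4.61 ± 0.11 in sponge plus Salmonella, Salmonella and control libraries, close to background throughout. It rose by 0.38 ± 0.11 in Salmonella against control libraries (adjusted p = 0.017), a call lost in 3 of 14 alternatives. Of 8 measured genes of 18 that act downstream of the family or beside it, 1 rose and 1 fell in Salmonella against control libraries, with a median of 0.01. STAT3, a signal carrier for IL-27 and IL-23, rose by 1.82 ± 0.25 (adjusted p = 7.19e-05) and fell by 1.24 ± 0.25 with the sponge over Salmonella (0.00301). The kinase JAK1 rose by 0.97 ± 0.16 in sponge plus Salmonella against Salmonella libraries (adjusted p = 0.000984), where 3 of the 8 rose and 2 fell, with a median of 0.57.

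CCL19, the chemokine that draws CCR7-bearing dendritic cells and T cells into lymph nodes, lies on chromosome 10 (32110366 to 32112529). Its level was 4.52, 4.88, 4.66 and 4.78 in sponge plus Salmonella libraries, 5.05, 5.04, 5.22 and 4.68 in Salmonella libraries, and 4.61, 4.90, 4.62 and 4.71 in control libraries. Salmonella replicates 1 to 3 were above all other libraries, replicate 4 was not, and 0 of the 12 passed the silent set. The difference in Salmonella against control libraries was 0.29 ± 0.14 (adjusted p = 0.118), and it was called in 1 of 14 alternatives, without Salmonella replicate 4 (0.0361). The sponge plus Salmonella libraries differed from Salmonella libraries by -0.29 ± 0.14 (adjusted p = 0.135) and from control libraries by 0.00 (0.998).

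CCL22, made by mature dendritic cells and macrophages, lies on chromosome 6 (19296726 to 19301506). The level of CCL22 was 4.35, 4.24, 4.40 and 4.27 in sponge plus Salmonella libraries, 4.36, 4.37, 4.33 and 4.39 in Salmonella libraries, and 4.59, 4.45, 4.40 and 4.39 in control libraries. All 12 values were below the mean of the silent set. Salmonella libraries lay below control libraries by less than shows in 2 decimals at their nearest values, and the sponge plus Salmonella libraries overlapped with both. The differences were -0.09 ± 0.06 in Salmonella against control (adjusted p = 0.240), -0.05 in sponge plus Salmonella against Salmonella (0.565) and -0.14 ± 0.06 in sponge plus Salmonella against control libraries (0.0668). The last was called in 3 of 14 alternatives, by median centring (0.0063), by quantile normalization (0.0368) and without sponge plus Salmonella replicate 3 (0.0397).

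The receptors of both chemokines were measured. CCR7, the CCL19 receptor on mature dendritic cells, naive T cells and B cells, was at 10.93 ± 0.58, 9.98 ± 0.63 and 11.78 ± 0.24 in sponge plus Salmonella, Salmonella and control libraries. It fell by 1.80 ± 0.30 in Salmonella against control libraries (adjusted p = 0.000438) and rose by 0.96 ± 0.30 with the sponge over Salmonella (0.0332), a call lost in 8 of 15 alternatives. CCR4, the CCL22 receptor on helper and regulatory T cells, was at 5.82 ± 0.83, 4.64 ± 0.53 and 5.74 ± 0.51 in sponge plus Salmonella, Salmonella and control libraries. It fell by 1.10 ± 0.39 in Salmonella against control libraries (adjusted p = 0.0409) and rose by 1.18 ± 0.39 with the sponge over Salmonella (0.0370), calls lost in 8 and 9 of 15 alternatives. CCRL2, an atypical receptor that binds the chemoattractant chemerin, rose by 3.78 ± 0.46 in Salmonella against control libraries (adjusted p = 2.83e-05) and fell by 2.32 ± 0.46 with the sponge over Salmonella (0.00288). The interferon-induced CXCL10 rose by 7.24 ± 0.95 in Salmonella against control libraries. The monocyte chemoattractant CCL8 fell by 1.83 ± 0.38 with the sponge over Salmonella. Of 11 measured genes of 20 in this group 5 rose and 4 fell in Salmonella against control libraries, with a median of 0.18, and 3 rose and 4 fell with the sponge over Salmonella, with a median of -0.01. T cell markers, whose cells also carry CCR7 and CCR4, fell for 10 of 11 in Salmonella against control libraries and rose for 9 of 11 with the sponge over Salmonella, and their part in the CCR7 and CCR4 results was not tested.

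Dendritic cell maturation genes moved in both directions. Of 11 measured genes of 25, CCL19, CCL22 and EBI3 included, 3 rose and 4 fell in Salmonella against control libraries, with a median of -0.09. The checkpoint ligand CD274 rose by 3.41 ± 0.44 (adjusted p = 4.55e-05) and the costimulatory receptor CD40 by 1.86 ± 0.41 (0.00295), while the costimulatory ligand CD80 fell by 0.63 ± 0.16 (0.00658). CD80 had a mean below 5 over the 12 libraries, under the 95th percentile of the silent set. Its fall therefore does not show how far the gene moved. With the sponge over Salmonella 3 rose and 3 fell, with a median of -0.06, and CD274 fell by 2.56 ± 0.44 (adjusted p = 0.00115). Over all genes 33.6% and 25% were called in these 2 comparisons. In the TLR9 and TLR7 pathway, which here also held TLR4 and its cofactor LY96, 7 of 16 measured genes rose and 1, TLR9 itself, fell in Salmonella against control libraries, with a median of 0.42. With the sponge over Salmonella 0 rose and 5 fell, with a median of -0.41. TLR4, the receptor for bacterial lipopolysaccharide, rose by 2.27 ± 0.23 in Salmonella against control libraries and fell by 1.48 ± 0.23 with the sponge over Salmonella (adjusted p = 0.00061), and LY96 rose by 1.96 ± 0.25 and fell by 1.45 ± 0.25. TLR8, a sensor of single-stranded RNA, rose by 1.71 ± 0.25 in Salmonella against control libraries. Monocyte markers rose for 6 of 8 in that comparison and fell for 4 of 8 with the sponge over Salmonella. The part of monocytes in the CD274, TLR4, LY96 and TLR8 results was not tested.

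**Figure D4:**
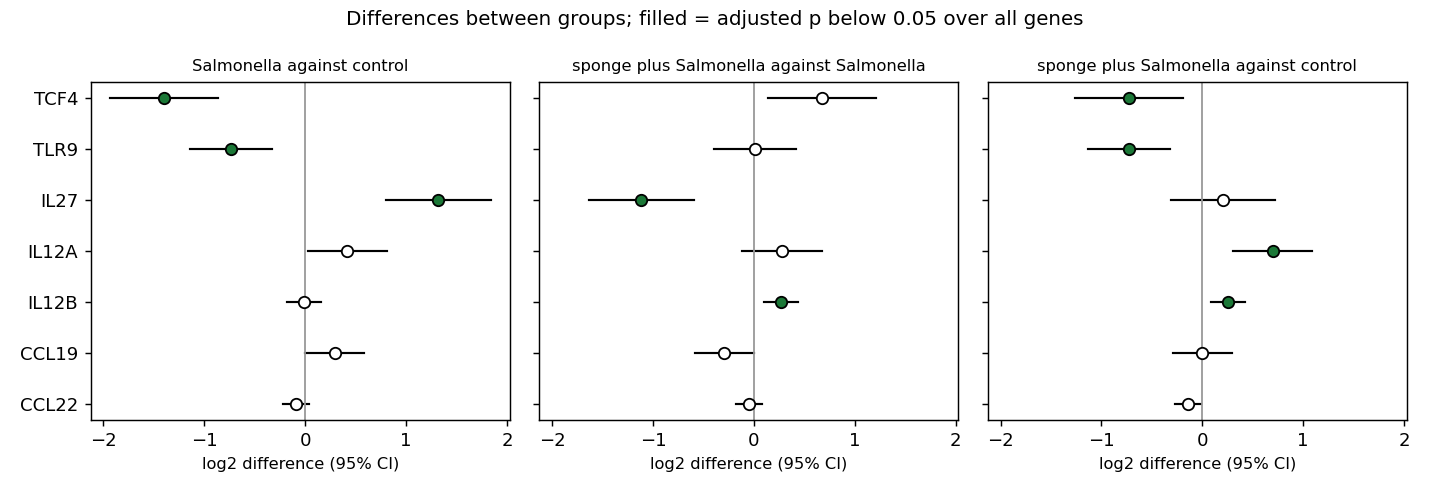
Log2 differences of the 7 genes (x axis, bars are 95% confidence intervals) in the 3 comparisons; filled points have a limma adjusted p below 0.05. IL27 is at 1.32 for Salmonella against control and -1.11 for sponge plus Salmonella against Salmonella, and TLR9 is at 0.01 for sponge plus Salmonella against Salmonella.

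The pattern of each member was set beside that of the genes with a mean of at least 5, as the mean absolute difference between the centred values over the 12 libraries. Nearest to TCF4 were RPAIN (0.20), HINT1 (0.20) and SF3A3 (0.21), where the median over 4143 genes was 0.63. For TLR9 they were COMMD6 (0.11), DBT (0.12) and CAMLG (0.13), with a median of 0.46 over 4144 genes. The genes nearest to IL27 included the chaperone gene DNAJA1 (0.17) and the interferon-induced protease gene USP18 (0.18), with a median of 0.69. IL12A had TXNIP (0.16), AHCYL1 (0.17) and GFPT1 (0.17) nearest, with a median of 0.53, and IL12B had CLEC16A (0.11), TUFM (0.11) and EIF4A3 (0.11), with a median of 0.43. Members near background have small differences by nature, so that such distances are small for them too. These distances describe 12 libraries that share groups and carry no test.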

How the data were processed

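RNA of 12 libraries, 4 per group, was sequenced as single reads of 50 bases from Illumina TruSeq libraries, with an RNA integrity number above 8, per the labels. Bowtie, R 3.4.2 and the build Sscrofa11.1 are named in the submitters' processing notes, with no word on counting, strand, normalization or filtering. The authors deposited 1 table of log2 values (7480 genes, 2.13 to 15.01, the highest value shared by 6 libraries), with the base not stated and taken as 2. No counts were used, so depth and counting error are unknown. All 12 libraries entered 1 fit with limma 3.58.1 (R 4.3.3), with group means and a variance trend, Benjamini-Hochberg adjusted over 7480 genes, with the threshold at 0.05, after being tested on simulated data. The confidence level of the intervals was 95%. The members, gene lists and rules were chosen with earlier results of these data known. All 7 members were named, and from each list up to 4 called genes with the smallest p in Salmonella against control libraries and up to 2 with the sponge over Salmonella, where they helped the account; SMPD3, SPIB, IRF8, XCR1, FLT3, CCR4 and TWF2 were named after their values were seen. Alternatives were leaving out each library, a replicate block, fitting 2 groups alone, no trend, median centring, quantile normalization, a mean of at least 5, and raising values to the silent-symbol mean of 4.62. Positions are from RefSeq on Sscrofa11.1. Summaries were computed with Python 3.11.15, pandas 2.3.3 and numpy 2.4.6, and figures drawn with matplotlib 3.10.9. Some genes that these rules would name are not reported here.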

Additional observations from a re-analysis of the deposited data

Results flagged for a closer look

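In 21 groups of 4 values (7 genes in 3 groups), 3 values stood apart from the other 3 of their group, with a gap to the nearest above the critical share of the group's range in Dixon's test, which chance gives in about 1 in 20 groups. TLR9 was 5.32 in Salmonella replicate 3, where the other Salmonella libraries were at 4.46 to 4.60, and its gap was 0.837 of the range. IL27 was 5.30 in sponge plus Salmonella replicate 1, where the other 3 were at 4.43 to 4.54, with a gap of 0.880 of the range. IL27 was 4.74 in control replicate 3, with a gap of 0.929 of the range, and the other control libraries were at 4.38 to 4.40.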

How the results depend on the processing

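Of 297 values of members under alternatives, 252 kept their direction and side of the threshold, 4 that were not called came to 0 with values raised to the background (CCL22 in all 3 comparisons and IL12B in Salmonella against control), 17 lost the call, 7 gained it and 17 turned round. The calls of TCF4, TLR9 and IL27 in Salmonella against control, IL27 in sponge plus Salmonella against Salmonella and TLR9 in sponge plus Salmonella against control held in every alternative that tested them. With only genes of mean at least 5, where TCF4 alone of the members was tested, called members were 1 (Salmonella against control), 0 (sponge plus Salmonella against Salmonella) and 1 (sponge plus Salmonella against control). In sponge plus Salmonella against Salmonella they were 1, against 2, by 2 groups alone, no trend, median centring or raised low values, and in sponge plus Salmonella against control 1, against 4, with raised low values. Leaving out 1 library gave 3 to 4, 1 to 3 and 2 to 5 called members, and 1991 to 2419, 1325 to 2013 and 2441 to 2959 called genes, in that order of comparisons. The turned values were not called: TLR9 with the sponge over Salmonella was -0.027 by median centring, -0.030 by quantile normalization, -0.037 with raised values and -0.081 to 0.21 without 1 library. CCL19 in sponge plus Salmonella against control was -0.12, -0.069 and -0.057 to 0.065 by median centring, quantile normalization and without 1 library. Without 1 library IL12B in Salmonella against control was -0.036 to 0.0032 and IL27 in sponge plus Salmonella against control -0.00088 to 0.29. Median centring moved the median of all genes to -0.20 in sponge plus Salmonella against control, against -0.07, and the calls there to 1062 higher and 2569 lower, against 1336 and 1721. In Salmonella against control it gave 965 higher and 1778 lower, against 1175 and 1338. Same-numbered libraries deviated together with correlations from -0.36 to 0.38, so the numbers were not taken as pairs. With a replicate block TCF4 in sponge plus Salmonella against control lost its call (adjusted p = 0.0569). The cause of these changes was not tested.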

Other observations

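The following genes were chosen after their values were seen. IL18, a cytokine that acts with IL-12 on T cells and NK cells, was at 13.04 ± 0.12 in sponge plus Salmonella libraries, 12.30 ± 0.44 in Salmonella libraries and 12.13 ± 0.37 in control libraries (SD, n = 4 each). It rose by 0.90 ± 0.21 in sponge plus Salmonella against control libraries (limma adjusted p = 0.00425) and by 0.73 ± 0.21 against Salmonella libraries (0.0231), where the call was lost in 5 of 15 alternatives. TBX21, the factor of IL-12-driven T cells, rose by 0.90 ± 0.27 in sponge plus Salmonella against control libraries (adjusted p = 0.0168), a call lost in 2 of 15 alternatives, and IL18RAP, a chain of the IL-18 receptor, fell by 1.27 ± 0.38 with the sponge over Salmonella (0.0256), a call lost in 6 of 15. IFNG, the gene of interferon gamma, was not called in any comparison. Its difference was -0.16 ± 0.38 in sponge plus Salmonella against control libraries (limma adjusted p = 0.748). It was -0.58 ± 0.38 in Salmonella against control libraries (0.255) and 0.42 ± 0.38 with the sponge over Salmonella (0.432).

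The limits of the member values are their closeness to background for 6 of 7 genes, the ties in the sponge plus Salmonella columns, the unknown depth and the unknown link of libraries to animals.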
